A study of Mus musculus with 6 samples.

Results

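The serpin family of the mouse liver was examined after hepatocyte loss of Lsd1 (gene symbol Kdm1a), a histone demethylase. Members were the genes of the deposited RNA-seq table whose symbol begins with Serpin, a clade letter from a to i and a number. The rule found 64 of 27179 genes, 26 in clade a and 38 in clades b to i. RNA was enriched for poly-A transcripts from the livers of 3 LSD1-LKO and 3 Control mice, all of the C57BL/6 strain, all LSD1-lox/lox, and all on a high-fat diet. LSD1-LKO mice received AAV8-TBG-cre by tail vein at 6 to 7 weeks of age, and Control mice received AAV8-TBG-GFP, which lacks Cre. The promoter in both viruses is that of thyroxine-binding globulin (TBG), which is active in hepatocytes, so other liver cells of LSD1-LKO mice are expected to keep the gene. The diet began 1 week after the virus. The series text gives 12 weeks of diet while the methods describe a shorter time, so its length is uncertain, and the labels give no sex.

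Serpins are proteins of one shared fold. In most of them an exposed loop, the reactive centre loop, is offered to a protease as bait, and cutting it traps the protease for good. Some serpins inhibit nothing and instead carry hormones or help other proteins to fold. The liver secretes most of the serpins of plasma, which restrain clotting, complement, fibrinolysis and neutrophil proteases, whereas serpins of clade b act mainly inside cells. Mice carry several copies of genes that are single in humans.

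The antitrypsin copies Serpina1a to Serpina1e are shown first because they are among the most abundant serpin transcripts and because reads from such close copies are hard to assign. Their coding sequences in GENCODE vM21 were 91.5% to 96.7% identical over the 10 pairs. The stretches below start at the hinge codons of the reactive centre loop and run for 60 bases within the last exon of each gene, read 5′ to 3′ on the coding strand. Capitals mark bases that differ from the commonest base of the 5 copies at that position.
Serpina1a (GRCm38 chr12:103853771-103853830, minus strand): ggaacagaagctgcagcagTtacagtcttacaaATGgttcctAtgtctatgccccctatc
Serpina1b (GRCm38 chr12:103728338-103728397, minus strand): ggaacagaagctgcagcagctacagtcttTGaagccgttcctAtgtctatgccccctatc
Serpina1c (GRCm38 chr12:103895108-103895167, minus strand): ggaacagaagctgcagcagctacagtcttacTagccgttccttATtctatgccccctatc
Serpina1d (GRCm38 chr12:103763776-103763835, minus strand): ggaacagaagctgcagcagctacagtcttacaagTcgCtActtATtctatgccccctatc
Serpina1e (GRCm38 chr12:103947114-103947173, minus strand): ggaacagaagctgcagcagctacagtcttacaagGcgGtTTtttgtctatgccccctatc
The differences gather in the middle of the loop, and any pair of copies differed at 4 to 8 of the 60 bases.

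The table gives 1 mean level over the livers and 1 fold per gene, with no values per liver, so overlap between individual LSD1-LKO and Control livers could not be examined. Levels are given as CPM, here the base mean (the mean of normalised counts over all 6 livers) scaled so that the base means of all genes sum to 1000000. Folds are LSD1-LKO over Control on the log2 scale with the deposited standard error (SE), and intervals are 95% normal intervals. A gene was tested where the table holds an adjusted p, and it was called where that value, from the DESeq2 Wald test with Benjamini-Hochberg adjustment, was under 0.05. Fold sizes of scarce genes are shrunken toward 0. No tested gene had an SE above 0.278, so folds of more abundant genes with a large SE may be shrunken too, which was not tested. Kdm1a itself was lower in LSD1-LKO livers by a log2 fold of −1.50 ± 0.16 (SE, adjusted p = 1.32e-19), at a mean level of 10.6 CPM.

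Of the 64 serpin genes, 19 had a base mean of 0, 10 had a base mean above 0 but too low to be tested, and 35 were tested. LSD1-LKO livers had higher levels of 15 tested serpins (42.9%), against 12.3% of all 14257 tested genes, and lower levels of 2 (5.71%), against 5.93% of all tested genes. The fold was above 0 for 25 of the 35 members (71.4%) and for 48.5% of all tested genes. The median log2 fold was 0.20 over the members and −0.01 over all tested genes. Among the 17 serpins of at least 100 CPM, 10 were higher and 1 was lower, against 11.2% higher and 17.7% lower of all 1331 tested genes at such levels. Most of the calls were of small size, and 7 of the 15 higher genes exceeded 1.5-fold.

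**Figure D1:**
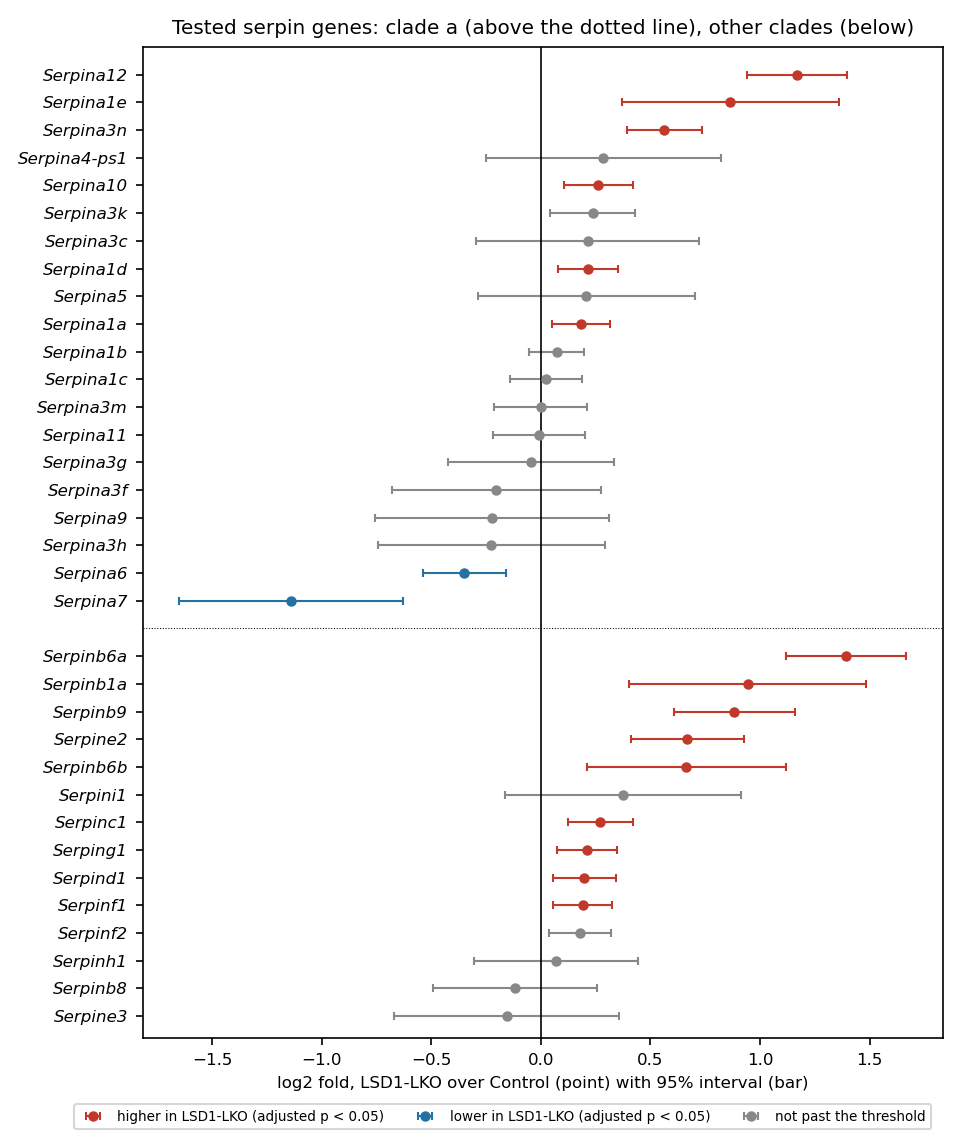
Log2 fold of LSD1-LKO over Control (horizontal axis) for 34 of the 35 tested serpin genes, clade a above the dotted line and other clades below it, each point with its 95% interval as a bar. The 2 genes that were lower, Serpina6 and Serpina7, are both of clade a, and the largest folds are those of Serpinb6a (1.39) and Serpina12 (1.17).

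Clade a and the other clades were set side by side as counts. In clade a, 6 of 20 tested genes were higher (30%), 2 were lower (10%) and 12 did not pass the threshold. The median log2 fold there was 0.13. In clades b to i, 9 of 15 were higher (60%), 0 were lower and 6 did not pass, with a median of 0.21. Of all tested genes 12.3% were higher and 5.93% lower, with a median of −0.01. At an unadjusted p under 0.05 the lower count in clades b to i was also 0, against 11.5% of all tested genes. The difference between the clade groups was not tested, since genes of 1 cluster are not independent replicates. Clade a supplied 82.3% of the serpin signal and 2.51% of the summed base mean of the liver, against 0.540% for the other clades. Without 7 copies whose coding sequence is at least 90% identical to another tested member (Serpina1a to Serpina1e, Serpina3k and Serpina3m), 3 of 13 clade a genes were higher and the clade a median was −0.0092.

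Antitrypsin, the product of the Serpina1 genes, is known as a plasma inhibitor of neutrophil elastase and other proteases. The 5 mouse copies differ in the reactive centre loop, and which proteases each copy inhibits was not examined. All 5 copies were tested, and 3 of them (60%) rose in LSD1-LKO livers, where 12.3% of all tested genes were higher. Serpina1e stood apart, with a log2 fold of 0.86 ± 0.25 (adjusted p = 0.00538), that is 1.82-fold with an interval of 1.29 to 2.57 that lay above the intervals of the other 4 copies, although differences between copies were not tested. Serpina1d (0.21 ± 0.07, adjusted p = 0.0151) and Serpina1a (0.18 ± 0.07, adjusted p = 0.0386) rose by less. Serpina1b had a fold of 1.05 (interval 0.962 to 1.15) and Serpina1c of 1.02 (interval 0.906 to 1.14), and neither passed the threshold. Per kb of exon, and as a mean over the livers of both groups, Serpina1e had the highest level of the 5 copies at 2916 CPM per kb. The higher level of Serpina1e in LSD1-LKO livers enters that mean. Serpina1a had the lowest at 869 CPM per kb.

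The SE of Serpina1e, 0.25, was larger than those of 99.2% of the 123 tested genes nearest to it in level, whose median SE was 0.08. Serpina1b had an SE of 0.06, the smallest beside its 124 neighbours in level. Which livers carry the spread of Serpina1e could not be seen without values per liver.

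How far the copies can be told apart was measured on the GENCODE transcripts. Of all 50-base words of the Serpina1c transcript, 20.7% occur in no other gene's transcripts, and 69.4% occur in Serpina1a. The unique share was 32.6% for Serpina1a, 49.1% for Serpina1d, 64.2% for Serpina1b and 64.4% for Serpina1e. With 100-base words it was 30.7% for Serpina1c and 85.2% for Serpina1e. How reads with several matches were handled is not given in the sources used here, so the folds of the single copies, above all of Serpina1c and Serpina1a, are uncertain.

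**Figure D2:**
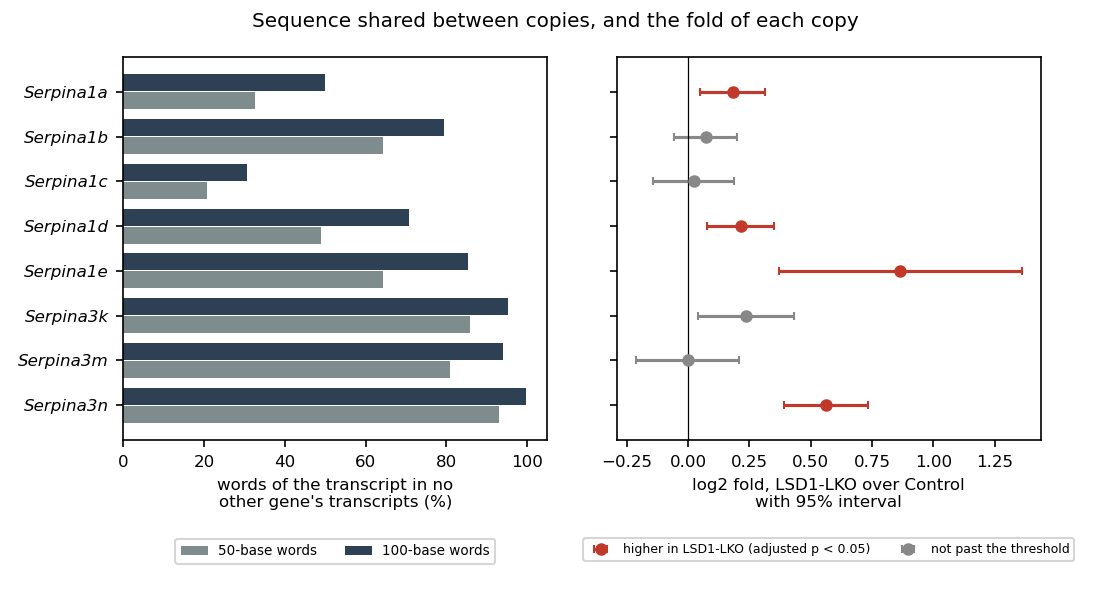
Left, share of 50-base and 100-base words of 1 transcript per gene that no other gene's transcripts hold, in percent. Right, log2 fold of LSD1-LKO over Control with its 95% interval for the same genes. Serpina1c has the lowest unique shares (20.7% and 30.7%), and Serpina1e has the largest fold (0.86) and the widest interval of these 8 genes.

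Just upstream of their RefSeq start sites the 5 copies are nearly the same. The stretches below are shown because the calls differed between copies that share this sequence, and capitals again mark bases that differ from the commonest one.
Serpina1a (GRCm38.p6 chr12:103863626-103863702, minus strand): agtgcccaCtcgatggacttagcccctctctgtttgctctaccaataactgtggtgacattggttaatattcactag
Serpina1b (GRCm38.p6 chr12:103738201-103738277, minus strand): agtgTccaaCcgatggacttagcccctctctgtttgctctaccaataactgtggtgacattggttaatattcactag
Serpina1c (GRCm38.p6 chr12:103904963-103905039, minus strand): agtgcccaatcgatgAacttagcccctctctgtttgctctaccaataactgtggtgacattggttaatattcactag
Serpina1d (GRCm38.p6 chr12:103773635-103773711, minus strand): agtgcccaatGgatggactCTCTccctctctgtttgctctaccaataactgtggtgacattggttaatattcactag
Serpina1e (GRCm38.p6 chr12:103956961-103957037, minus strand): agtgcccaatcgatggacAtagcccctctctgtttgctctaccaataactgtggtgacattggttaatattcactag
Pairs of copies differed at 2 to 7 of these 77 bases. Serpina1e differed from Serpina1a and from Serpina1c, whose folds were smaller, at 2 bases each. Each stretch holds GTTAAT, the core of sites that HNF1 factors bind, and TGTTTGC, a sequence of the kind that forkhead factors bind. On either strand, GTTAAT occurs in the 250 bases upstream of 7.49% of 27025 mouse genes and of 11 of the 53 serpin genes with a RefSeq promoter, 7 of them in clade a. TGTTTGC occurs upstream of 4.93% of genes and of 7 of the 53 serpin genes, which are the 5 antitrypsin copies, Serpina3f and Serpinb9. The 5 copies are also among the 11 genes above, so near-identical promoters were counted 5 times in each set. Whether either sequence is commoner upstream of serpin genes was not tested. Other short sequences were counted as well and are not reported here. The first base of GTTAAT lies 78 bases before the annotated start in Serpina1e and 16 to 27 bases before it in the other copies, where the annotated start itself is placed differently.

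The Serpina3 genes, multiplied in mice from an ancestor of human antichymotrypsin, comprise 11 members. Of these 7 were tested and 1 was higher (14.3%), a share close to the 12.3% of all tested genes. Serpina3n, which is induced in the acute phase and inhibits leukocyte elastase and granzyme B, rose by a log2 fold of 0.56 ± 0.09 (adjusted p = 3.57e-09), or 1.48-fold. Serpina3k, the most abundant serpin at 3441 CPM per kb, had a fold of 1.18 (interval 1.03 to 1.35) and missed the threshold (adjusted p = 0.0852). Serpina3m, whose coding sequence is 90.9% identical to that of Serpina3k, had a log2 fold of 0.00 ± 0.11 (adjusted p = 0.998). In Serpina3k 86.0% and in Serpina3n 93.1% of the 50-base words were unique, shares above those of the antitrypsin copies.

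The other tested Serpina3 genes were scarce and did not pass. Serpina3g, an intracellular inhibitor of cathepsins known from lymphocytes and macrophages, had 7.36 CPM and a log2 fold of −0.04 ± 0.19 (adjusted p = 0.925). Serpina3f had 2.34 CPM and −0.20 ± 0.24 (adjusted p = 0.673). Serpina3c had 0.338 CPM and 0.21 ± 0.26 (adjusted p = 0.674), and the pseudogene Serpina3h 0.302 CPM and −0.23 ± 0.26 (adjusted p = 0.661).

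The hormone carriers of clade a were the 2 serpins that fell. Serpina7 encodes thyroxine-binding globulin, a carrier of thyroid hormone. It had a log2 fold of −1.14 ± 0.26 (adjusted p = 0.000186), so its level in LSD1-LKO livers was 0.454 of that in Control livers, with an interval of 0.319 to 0.647. Serpina6 encodes corticosteroid-binding globulin, the carrier of glucocorticoids in blood. Its log2 fold was −0.35 ± 0.10 (adjusted p = 0.00302), or 0.785 of the Control level. The mean level of Serpina7 was 33.8 CPM, and its SE was larger than those of 99.0% of the 200 tested genes nearest in level. Both groups received a virus with the TBG promoter, and any part of the virus in the Serpina7 fold was not tested.

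The 100 bases before the more upstream RefSeq start of Serpina7 are shown because this gene had the lowest fold of the family and holds the same HNF1 core as the antitrypsin copies, here in capitals.
Serpina7 (GRCm38.p6 chrX:139085237-139085336, minus strand): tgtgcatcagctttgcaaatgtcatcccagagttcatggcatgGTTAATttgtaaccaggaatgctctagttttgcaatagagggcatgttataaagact
Serpina7 is the only clade a gene outside the chromosome 12 cluster. The antitrypsin copies, which hold the same 6 letters, had log2 folds of 0.02 to 0.86, and Serpina7 of −1.14.

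Serpina12 encodes vaspin, a secreted inhibitor of a kallikrein that was first described in fat tissue. It had the largest fold of clade a, 1.17 on the log2 scale (SE 0.12, adjusted p = 5.79e-22), that is 2.25-fold with an interval of 1.92 to 2.63, at 115 CPM. All of its 50-base words are unique. Serpina10, the inhibitor of coagulation factor Xa that depends on protein Z, rose by 0.26 ± 0.08 (adjusted p = 0.00885).

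The remaining clade a genes did not pass. Serpina11, a serpin of the liver without a well-known target, had 69.6 CPM and a log2 fold of −0.01 ± 0.11 (adjusted p = 0.976). A GENCODE gene, Gm28577, shares 44.4% of its 50-base words. The transcribed pseudogene Serpina4-ps1 had 175 CPM and 0.28 ± 0.27 (adjusted p = 0.569), with an SE above those of 99.5% of its 200 neighbours in level. Serpina5, the protein C inhibitor, had 0.243 CPM and 0.21 ± 0.25 (adjusted p = 0.678), and Serpina9, a serpin of germinal centre B cells, had 1.55 CPM and −0.22 ± 0.27 (adjusted p = 0.678).

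Of the 5 plasma serpins of other clades, 4 rose by small amounts, where 12.3% of all tested genes were higher. Serpinc1, antithrombin, which inhibits thrombin and factor Xa, had a log2 fold of 0.27 ± 0.07 (adjusted p = 0.00283) at 2305 CPM. Serping1, the C1 inhibitor of complement and the contact system, had 0.21 ± 0.07 (adjusted p = 0.0202). Serpind1, heparin cofactor II, which inhibits thrombin, had 0.20 ± 0.07 (adjusted p = 0.0383). Serpinf1, the pigment epithelium-derived factor, which inhibits no protease, had 0.19 ± 0.07 (adjusted p = 0.0369). Serpinf2, the plasmin inhibitor antiplasmin, had 0.18 ± 0.07 and missed the threshold (adjusted p = 0.0647). All 5 folds lay between 1.13 and 1.21, and their intervals overlap. The GENCODE transcripts of Serpinc1 and of Zbtb37 share 58.8% of the 50-base words of Serpinc1. Zbtb37 had 3.02 CPM.

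The intracellular serpins of clade b lie in clusters on chromosomes 1 and 13. On chromosome 13 (GRCm38.p6, 32842092 to 34002794) 15 members lie within 1161 kb, of which 4 were tested. All 4 rose in LSD1-LKO livers, where 12.3% of all tested genes were higher. Serpinb6a, an inhibitor of cathepsin G, had the largest fold of the family, 1.39 on the log2 scale (SE 0.14, adjusted p = 3.37e-21), that is 2.63-fold with an interval of 2.17 to 3.18, at 22.3 CPM. Serpinb9, which inhibits granzyme B and shields cells from it, rose 1.84-fold (log2 0.88 ± 0.14, adjusted p = 1.19e-08) at 12.2 CPM. Serpinb1a, an inhibitor of neutrophil elastase, proteinase 3 and cathepsin G, rose 1.92-fold (log2 0.94 ± 0.28, adjusted p = 0.00560) at 6.32 CPM. Its SE was above those of all 200 neighbours in level. Serpinb6b rose 1.58-fold (log2 0.66 ± 0.23, adjusted p = 0.0271) at 2.77 CPM.

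On chromosome 1 only Serpinb8 of 12 clade b members was tested, and it did not pass, with a log2 fold of −0.12 ± 0.19 (adjusted p = 0.775) at 4.98 CPM. All 4 clade b genes that rose were from chromosome 13, with log2 folds of 0.66 to 1.39. That chromosome held 4 of the 5 tested clade b genes, so the chromosomes cannot be compared. Of the 50-base words of Serpinb6a 86.9% were unique, and of those of Serpinb1a, Serpinb6b and Serpinb9 96.6% to 99.6%. How reads were assigned to these genes was not tested.

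**Figure D3:**
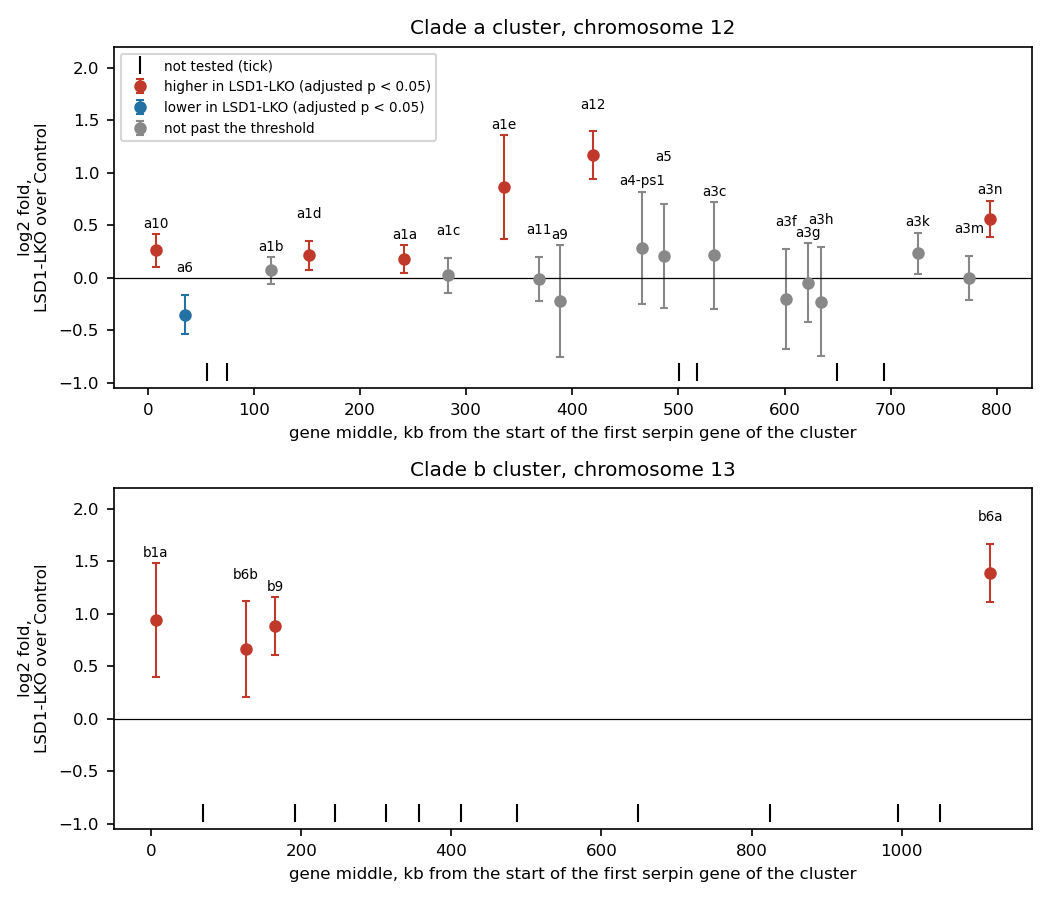
Log2 fold of LSD1-LKO over Control with 95% intervals against the position of each serpin gene, in kb from the start of the first serpin gene of the cluster, for clade a on chromosome 12 and clade b on chromosome 13. Ticks mark genes that were not tested. On chromosome 12 genes that rose, fell or did not pass lie side by side, and on chromosome 13 the 4 tested genes all lie above 0.

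The clade a cluster of chromosome 12 (103616675 to 104414334) held 25 members in 798 kb, of which 19 were tested. Of these 6 were higher (31.6%) and 1 was lower (5.26%), beside 12.3% and 5.93% of all tested genes. Serpina10 (log2 fold 0.26) and Serpina6 (−0.35), which lie next to each other there, moved in opposite directions. Serpina1e (0.86) and Serpina12 (1.17) are separated by Serpina11 (−0.01) and Serpina9 (−0.22), which did not pass.

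Serpine2, protease nexin 1, an inhibitor of thrombin and urokinase at the cell surface, rose by 0.67 ± 0.13 on the log2 scale (adjusted p = 6.90e-06), 1.59-fold, at 46.8 CPM. Serpine3 had 0.281 CPM and a log2 fold of −0.16 ± 0.26 (adjusted p = 0.784). Serpinh1, the collagen chaperone HSP47, had 8.66 CPM and 0.07 ± 0.19 (adjusted p = 0.883). Serpini1, neuroserpin, had 0.440 CPM and 0.37 ± 0.27 (adjusted p = 0.415).

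**Figure D4:**
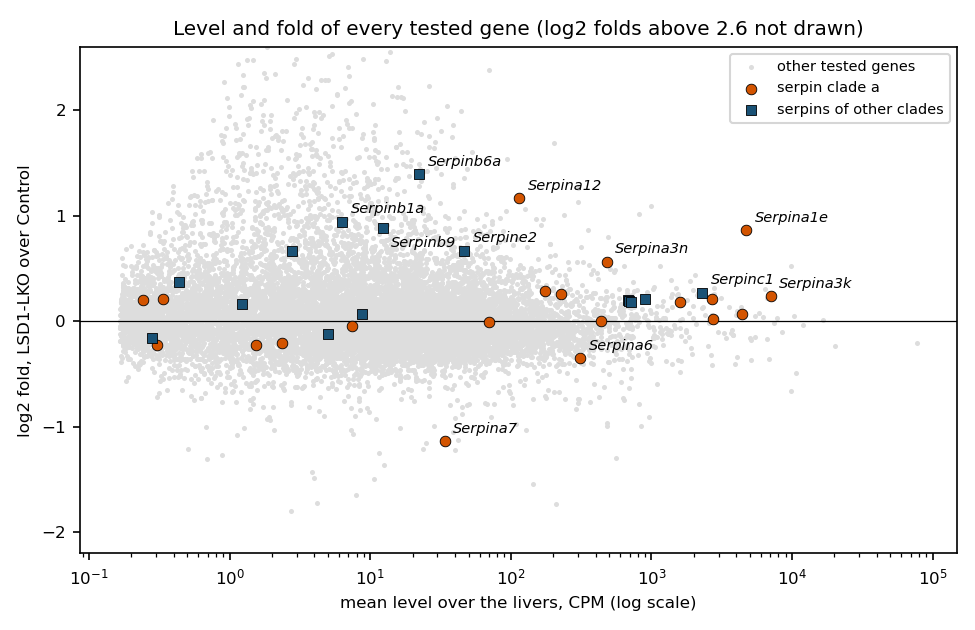
Log2 fold of LSD1-LKO over Control against the mean level in CPM (log scale) for every tested gene in grey, with serpins of clade a as circles and of other clades as squares. Serpina1e (4714 CPM) and Serpina12 (115 CPM) lie above most genes of like level and Serpina7 (33.8 CPM) below them, while the plasma serpins of other clades lie close together just above 0.

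Markers of cell types were examined beside the clade b genes, since inhibitors of granule proteases are also made by leukocytes. Fewer cells of a type and less RNA per cell cannot be told apart in whole liver. The hepatocyte markers carried 11.7% of the summed base mean, so the tissue matched its label. Of the 9 markers 2 were higher (22.2%), among them Apob (log2 fold 0.30), beside 12.3% of all tested genes. Of the neutrophil markers 3 were tested and 0 passed (0 also at an unadjusted p under 0.05), with a summed level of 1.44 CPM. S100a9 had the smallest p (log2 fold 0.31 ± 0.27) and Ly6g was at 0. Prtn3, which encodes a neutrophil granule protease and is not on this marker list, was higher (log2 fold 1.14 ± 0.28) at 0.671 CPM. The 10 lymphocyte markers summed to 3.38 CPM and none passed at either threshold, the smallest p being that of Nkg7 (0.38 ± 0.27). None of the 12 macrophage markers (260 CPM) or the 8 cholangiocyte markers (66.8 CPM) passed at either threshold. Their genes of smallest p were Vsig4 (0.23 ± 0.15) and Cldn7 (0.31 ± 0.28). Among 12 endothelial markers Stab1 was higher (0.31 ± 0.11, adjusted p = 0.0366) while the median of the list was −0.19 and 3 of 12 folds were above 0. Kdr and Cdh5, chosen after their values were seen, had log2 folds of −0.33 and −0.32 with an unadjusted p under 0.05, and neither passed after adjustment. Among 12 stellate cell and fibroblast markers 1 was higher, the same share as of the endothelial markers (8.33%, beside 12.3% of all tested genes). The median of the stellate cell and fibroblast list was 0.14 and its largest log2 fold 1.76. Summed levels per group are not known, and the part of other cell types in the clade b and Serpine2 folds was not tested.

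For the list of proteases that serpins inhibit, which also holds the cofactor Proz, the median log2 fold was 0.21 over 21 tested genes, of which 8, Proz among them, were higher (38.1%) and 1 was lower (4.76%), beside 12.3% and 5.93% of all tested genes. C1s1 and C1ra encode the complement proteases that Serping1 inhibits. C1s1 rose by 1.09 ± 0.07 (adjusted p = 2.19e-50) and C1ra by 0.50 ± 0.08 (adjusted p = 3.29e-08), against 0.21 ± 0.07 for Serping1. F7, coagulation factor VII, rose by 0.38 ± 0.09 (adjusted p = 0.000147). Prtn3, proteinase 3, a target of Serpinb1a, rose by 1.14 ± 0.28 (adjusted p = 0.000572) at 0.671 CPM. F11, coagulation factor XI, chosen after its value was seen, was lower (−0.26 ± 0.09, adjusted p = 0.0139), a call that was lost when folds were recentred. Proz, protein Z, the cofactor of Serpina10, and F2, prothrombin, were likewise chosen after their values were seen, and had log2 folds of 0.22 (adjusted p = 0.0166) and 0.20 (adjusted p = 0.0332).

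Protease inhibitors outside the serpin family had a smaller median, 0.09 over 23 tested genes. Of these 6 were higher (26.1%) and 1 was lower (4.35%), beside 12.3% and 5.93% of all tested genes. Cpb2, a carboxypeptidase that slows fibrinolysis and was listed here with the inhibitors, rose by 0.44 ± 0.07 (adjusted p = 4.15e-09). Spink1, a secreted trypsin inhibitor, rose by 1.55 ± 0.28 (adjusted p = 4.74e-07) at 0.752 CPM. Itih4 and Ambp, a heavy chain of the inter-alpha-trypsin inhibitor family and the precursor of its light chain, rose by 0.44 and 0.30. Of 20 acute phase proteins outside the family 4 were higher (20.0%, beside 12.3% of all tested genes) and 0 lower, with a median of 0.07, and at an unadjusted p under 0.05 Saa2 was lower (−0.33 ± 0.16). Lcn2, lipocalin 2, rose by 1.49 ± 0.28 (adjusted p = 1.38e-06), and Orm1, Apcs and Hpx by 0.49, 0.64 and 0.22.

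Transcription factors of hepatocyte serpin genes had a median of 0.05 over 20 genes, with 3 higher (15%) and 1 lower (5%), shares close to the 12.3% and 5.93% of all tested genes. Foxa2 (0.58 ± 0.15, adjusted p = 0.000990) and Foxa1 (0.47 ± 0.15, adjusted p = 0.00947), forkhead factors of the liver, were higher, as was Cebpa (0.24 ± 0.09, adjusted p = 0.0485). Cebpd, a factor of the acute phase, was lower (−0.49 ± 0.18, adjusted p = 0.0364), a call that was lost when folds were recentred.

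Hormone carriers and partners of the non-inhibitory serpins had a median of 0.00 over 20 genes, with 6 higher (30%) and 1 lower (5%), beside 12.3% and 5.93% of all tested genes. Dio1, the deiodinase that activates thyroid hormone in liver, rose by 0.39 ± 0.09 (adjusted p = 0.000356), and Thra, a thyroid hormone receptor, by 0.47 ± 0.14 (adjusted p = 0.00808). Lrp2, an endocytic receptor, rose by 1.53 ± 0.24 (adjusted p = 2.53e-09), and Vtn, vitronectin, by 0.25 ± 0.07 (adjusted p = 0.00434). Vldlr, chosen after its value was seen, was the gene that was lower (−0.77 ± 0.27, adjusted p = 0.0263). Agt, angiotensinogen, a serpin by descent whose symbol the rule does not match, had −0.27 ± 0.10 (adjusted p = 0.0513). None of the 18 collagen partners of Serpinh1 passed, 3 had an unadjusted p under 0.05, and P4ha1 had the smallest p (0.40 ± 0.15, adjusted p = 0.0520).

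**Figure D5:**
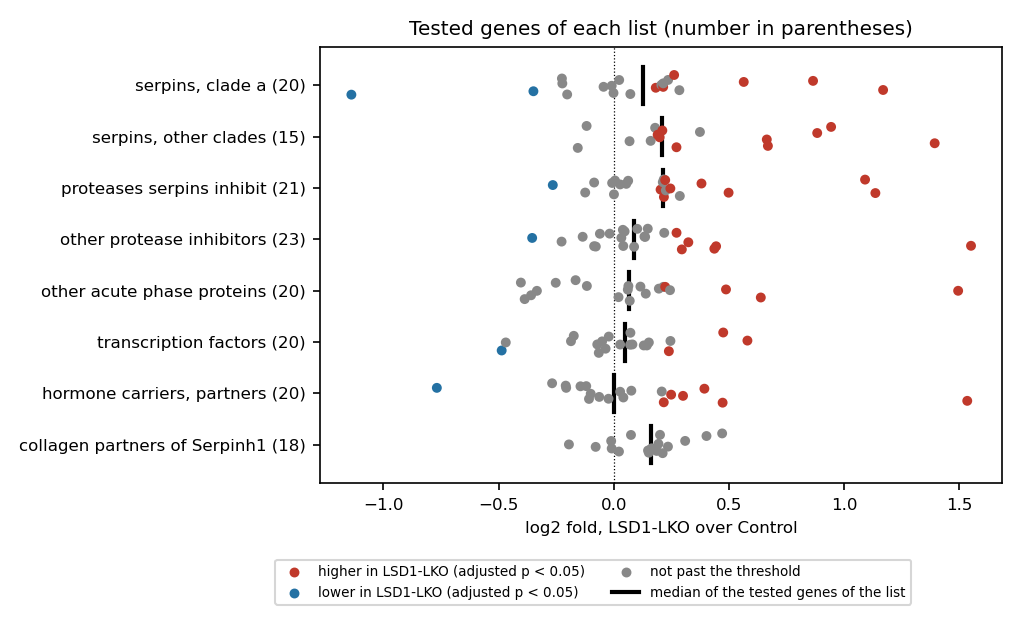
Log2 fold of LSD1-LKO over Control for the tested serpins of clade a and of other clades and for 6 lists of related genes, 1 point per gene, with the median of each as a bar. The medians run from 0.00 for hormone carriers to 0.21 for proteases and for serpins of other clades, and in every list except the collagen partners of Serpinh1, where none passed, some genes lie far above the median.

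The 29 members that were not tested were at or near 0 in these livers. With a base mean above 0 but no adjusted p were Serpina3a (1.33), Serpina3i (1.78), Serpina16 (0.177), Serpinb1b (0.512), Serpinb1c (0.171), Serpinb2 (0.522), Serpinb5 (0.177), Serpinb7 (0.692), Serpinb9b (0.306) and Serpinb10 (0.699), each value being its base mean in normalised counts. The table lists at 0 Serpina1f, Serpina3b, Serpina3j, Serpinb3a, Serpinb3b, Serpinb3c, Serpinb3d, Serpinb6c, Serpinb6d, Serpinb6e, Serpinb9c, Serpinb9d, Serpinb9e, Serpinb9f, Serpinb9g, Serpinb11, Serpinb12, Serpinb13 and Serpini2. These are 3 of 26 genes of clade a and 15 of 27 of clade b, many of them known from skin, placenta or testis.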

How the data were processed

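Per the labels and methods, the authors mapped reads to mm10 (the build also called GRCm38) with STAR, built transcript models with StringTie and compared 3 LSD1-LKO with 3 Control livers by DESeq2. The strand setting is, like versions and the counting of multi-mapped reads, not given in the sources used here. Each deposited base mean is a signal, the mean over livers of counts divided by size factors. The deposited log2 fold changes and SE are on the log2 scale. The deposited Wald score equals fold over SE (largest difference 1.28e-13), and the deposited p-values are its two-sided normal p-values. Folds and adjusted p-values are those of the authors. Which group is the numerator is not written in the table, so the ratio was taken as LSD1-LKO over Control because Kdm1a is then lower. Without values per liver no refit was possible and depth per liver is unknown. The base means sum to 20658827. Unused columns of values per sample numbered 0. Nothing says whether the 3 livers of a group differ in litter or batch, or whether litter or batch follows the groups. The p-values set each fold against its SE and cannot separate such a difference from loss of Lsd1.

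Members, lists and tests were chosen with earlier results of these data known. The naming rule took every tested serpin, Kdm1a and, per list, up to 4 called genes of smallest p, or the gene of smallest p where none was called, and 3 genes that it takes are not reported here. Proz, F2, F11, Vldlr, Saa2, Kdr, Cdh5, Ly6g, Agt and Zbtb37 fall outside it. Coordinates and promoters came from RefSeq (GRCm38.p6), transcripts from GENCODE vM21. CPM per kb divides by exon length. Coding sequences were aligned with biopython 1.88. Recomputed p-values (scipy 1.17.1) were tested on simulated data. Alternatives covered the level filter, threshold, centring, fold size and near-identical copies.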

Additional observations from a re-analysis of the deposited data

How the results depend on the processing

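No paired analysis was possible because the table holds no values per liver, and for the same reason no liver could be left out. Of 15 higher and 2 lower serpins, 9 and 2 passed at an adjusted p under 0.01, 5 of the 9 in clades b to i. These are counts among 35 tested serpins, and of all tested genes 9.52% were higher and 3.25% lower at 0.01. With at least 1.5-fold asked, 7 were higher and 1 lower: in clade a 2 higher and 1 lower, in clades b to i 5 higher. At that setting 7.67% of all tested genes were higher and 0.982% lower. Without copies of at least 90% coding identity, chosen after seeing the data in place of a planned protein identity that was not run, 3 of 13 clade a genes were higher and the clade a median was −0.0092. All other counts and medians of serpins stayed within 1.5 times or within 1 median SE. With the median fold of genes at 10 CPM or more (−0.04) subtracted from each fold, calls over all genes were 1992 higher and 573 lower, against 1754 and 846 as deposited, so that 77.7% and 67.5% of calls were higher. Recentring added Serpina3k (adjusted p = 0.0325) and Serpinf2 (adjusted p = 0.0147) to the higher serpins, and no serpin call was lost. Recentring, chosen for the lists after seeing the data, also changed the lower counts of the proteases and of the transcription factors, each now 0, and the higher count of the collagen partners, now 1. The 6 serpins that passed 0.05 but not 0.01 were Serpina1a, Serpina1d, Serpinb6b, Serpind1, Serpinf1 and Serping1. Tested serpins under 10 CPM have SE of 0.19 or more, so small changes in them were not detectable.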
